A study of Mus musculus with 15 samples.

Results

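Integrins and laminins were described in the tumor endothelial hierarchy, as the 36 genes of these families listed by symbol among the 53465 genes of the expression table: 18 integrin alpha subunits, 8 integrin beta subunits and 10 laminin chains. The list was set by gene name and not by a cut on measured values, but it was chosen with earlier results of these data known. The study sorted GFP+ cells on day 15 from tumors of B16-F0, a melanoma line of the mouse, grown in CAG-GFP transgenic mice that express GFP in every tissue, and asked how endovascular progenitor (EVP), transit amplifying (TA) and definitive differentiated (D) cells differ in their transcripts. All groups were Lin-CD34+ cells after magnetic depletion of lineage positive cells, and the gates differed in CD31 and VEGFR2 (CD31lo VEGFR2lo for EVP, CD31int VEGFR2lo for TA, CD31hi VEGFR2hi for D). Mice of both sexes, 8 to 14 weeks old, were used in the study, no treatment besides the tumor was stated for these groups, and RNA was sequenced from 5 libraries per population. Whether the replicates came from separate animals was not stated, so that p-values measure only the spread between these libraries. The GFP marks cells of the host and no particular cell type, which limits the gates as a model of endothelium. The study checked the endothelial lineage of Lin-CD34+ tumor cells in other mice, with a YFP reporter driven by Cdh5-CreER, and no such reporter was measured in these libraries.

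Integrins are receptors built from an alpha and a beta subunit that anchor cells to the extracellular matrix or to other cells and signal through adaptor proteins at their short tails. Laminins are trimers of an alpha, a beta and a gamma chain that polymerize into the sheet of the basement membrane. Endothelial basement membranes are known for laminins with the alpha4 or the alpha5 chain, and the alpha3 and alpha6 integrin subunits are known laminin receptors, while alpha1, alpha2, alpha10 and alpha11 subunits pair with beta1 to bind collagens.

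Values are normalized counts, that is reads per gene divided by a size factor for each library, and are given to 4 significant digits with replicates in the order 1 to 5. A gene was called when the Benjamini-Hochberg adjusted p of limma on log2(normalized count + 1), over 25549 genes whose mean reached 5, was under 0.05, and a fold is a ratio of mean normalized counts. Log2 differences in parentheses are followed by their standard error after ±, and this scale understates the change of genes with low values. Between 5394356 and 26513073 reads per library fell on genes, and the limit of detection, set at 3 reads, stood for 1.81 to 10.5 normalized counts. Replicate 1 stood apart in every population, with 8.495 to 10.6% of its reads on the predicted gene Gm10800 against at most 0.701% in another library. Of 1106 olfactory receptor genes, 81.6 to 98.3% had a read in replicate 1. This share was also high in TA replicate 3 (71.0%), EVP replicate 2 (61.8%) and TA replicate 2 (57.8%), against 2.89 to 5.06% in replicates 4 and 5. Such low-level reads were thus not confined to replicate 1. The summed normalized counts of 12 endothelial markers ranged from 2516 to 5952 in EVP, 8865 to 95750 in TA and 132700 to 219100 in D, and 11 of the 12 were called higher in D than in EVP. For 10 fibroblast markers the ranges were 566100 to 910100 in EVP, 127700 to 384700 in TA and 721.5 to 3000 in D, and all 10 were called higher in EVP than in D. The markers thus went against the endothelial label of EVP, and EVP and TA are used below as names of the gates. No marker of either list was at 0 in every library of a population. In RNA from pooled cells, fewer cells of a type and less RNA per cell cannot be told apart, and the part of the marker differences in the results below was not tested.

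Between EVP and D, 20 of the 36 genes were called, against 19.0% of all genes tested. Of these, 12 were higher in D (7.46% of all genes) and 8 were higher in EVP (11.6%). The libraries of both populations did not overlap for 18 of the 36, against 17.7% of all genes tested. Within the families, 8 of 10 laminin chains, 8 of 18 alpha subunits and 4 of 8 beta subunits were called. The median log2 difference, EVP minus D, was 0.69 over the 36 genes and 0.46 over all genes tested. Of the laminin receptors Itga3 and Itga6 and the laminin chain Lama5, D held the most, TA less and EVP the least, and these were the 3 genes called in every comparison.

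Itga6, at chr2:71745616-71858416 of GRCm38 on the plus strand, encodes a laminin receptor subunit. The libraries held 182.6, 218.2, 177.5, 198.2 and 235.8 in EVP, 2970, 1602, 3266, 1607 and 952.8 in TA and 3843, 6498, 5637, 6733 and 5980 in D (normalized counts). The 3 populations did not overlap, and the EVP libraries lay within 177.5 to 235.8. The mean in D was 28.3-fold that in EVP (EVP minus D -4.80 ± 0.28, adjusted p = 1.88e-09), the mean in TA was 10.3-fold that in EVP (EVP minus TA -3.22 ± 0.28, adjusted p = 2.24e-05), and TA also differed from D (TA minus D -1.58 ± 0.28, adjusted p = 9.22e-04). Itga3, at chr11:95044474-95076801 on the minus strand, encodes the other laminin receptor subunit with such a pattern. Normalized counts of Itga3 were 45.64, 141.1, 36, 115.9 and 40.1 in EVP, 1627, 738.4, 1192, 557.1 and 57.91 in TA and 2382, 1825, 2755, 3385 and 2066 in D. All D libraries lay above all others, and TA replicate 5 fell within the EVP range. D held 32.8 times the mean of EVP (EVP minus D -5.22 ± 0.67, adjusted p = 1.52e-05) and TA 11.02 times (EVP minus TA -3.06 ± 0.67, adjusted p = 0.0168). TA replicate 5, the lowest TA library for Itga3 and Itga6, had the lowest endothelial sum of TA (8865). TA replicate 1 with the highest sum (95750) had the highest Itga3 of TA, whereas Itga6 was highest in TA replicate 3 (3266, against 2970 in replicate 1). The difference of Itga3 between EVP and TA was not called without EVP replicate 3 or without TA replicate 3, and its adjusted p ranged up to 0.11 over 29 alternatives. Itga3 also passed between TA and D (TA minus D -2.16 ± 0.67, adjusted p = 0.0425), a call lost without TA replicate 2 or 4 or any D replicate and in 5 other alternatives (adjusted p up to 0.325 over all 29).

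Itga7, a laminin receptor subunit best known from muscle and from the muscle-like cells of vessel walls, showed another order. Itga7 reached 105.3, 71.85, 14.73, 215 and 298 in EVP, 139.6, 596.9, 192, 497.5 and 2468 in TA and 56.29, 13.06, 126.6, 38.31 and 55 in D (normalized counts). TA replicate 5 was the highest by far, the TA libraries lay above all D libraries, and EVP overlapped with both. TA was 13.5-fold above D (TA minus D 3.29 ± 0.83, adjusted p = 0.0128), or 6.16-fold without TA replicate 5, and this call was lost under quantile normalization and without TA replicates 2, 4 and 5 (adjusted p up to 0.269 over 29 alternatives). EVP and TA (EVP minus TA -2.26 ± 0.83, adjusted p = 0.167) and EVP and D (EVP minus D 1.02 ± 0.83, adjusted p = 0.515) did not pass the test. The summed level of 10 mural cell markers was 157200 in TA replicate 5, 6231 to 40180 in the other TA libraries, 7449 to 34640 in EVP and 5227 to 10910 in D. Of these markers, 6 were called higher in TA than in D and 2 higher in TA than in EVP. Between EVP and D the list was mixed, with 4 called higher in EVP and 2, Kcnj8 and Abcc9, higher in D.

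Among the collagen receptors, Itga11 was higher in EVP, while Itga1 and Itga2 were higher in D. Itga11, at chr9:62677826-62783982 on the plus strand, encodes a collagen receptor subunit of fibroblasts. Replicates 1 to 5 had 1331, 717.2, 660.2, 1866 and 508.2 in EVP, 370.6, 103.7, 338.2, 411.3 and 281.5 in TA and 21.97, 4.082, 0, 0 and 4.23 in D (normalized counts). No EVP library overlapped with a TA library and no TA library with a D library, where 2 libraries were at 0. The mean was 168-fold higher in EVP than in D (EVP minus D 7.97 ± 0.72, adjusted p = 3.24e-07) and 49.7-fold higher in TA than in D (TA minus D 6.25 ± 0.72, adjusted p = 1.37e-05), and these folds were 489.2 and 144.9 without D replicate 1. Between EVP and TA the difference did not pass (EVP minus TA 1.72 ± 0.72, adjusted p = 0.244). The lack of overlap fixes the two-sided p of an exact permutation test of 5 against 5 libraries at its smallest possible value, 0.00794. Between EVP and TA, 4.29% of all genes tested did not overlap, so this p adds nothing to the missing overlap.

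Itga2 and Itga1, neighbors on chromosome 13, encode subunits that bind collagens and, known for some cells, laminins. For Itga2, the normalized counts were 445.9, 219.5, 172.6, 209.4 and 103 in EVP, 472.3, 63.29, 527.9, 419.2 and 87.8 in TA and 1179, 1354, 1023, 1752 and 1472 in D. D lay above the other populations without overlap, and EVP and TA overlapped. Itga2 was 5.89-fold higher in D than in EVP (EVP minus D -2.69 ± 0.54, adjusted p = 0.00127) and 4.32-fold higher than in TA (TA minus D -2.56 ± 0.54, adjusted p = 0.00367). For Itga1, the normalized counts were 1246, 832.2, 256.1, 805.6 and 1970 in EVP, 1856, 1639, 2588, 2359 and 7382 in TA and 2699, 2202, 3019, 3572 and 4460 in D. The lowest D library exceeded the highest EVP library, and TA replicate 5, the library with the highest mural sum, was the highest of all. Itga1 was 3.12-fold higher in D than in EVP (EVP minus D -1.88 ± 0.46, adjusted p = 0.00618), with an adjusted p just over the threshold between EVP and TA (EVP minus TA -1.67 ± 0.46, adjusted p = 0.0534). Itga10, the chondrocyte collagen receptor subunit, stayed between 0.6044 and 12.25 in all libraries and was called in no comparison.

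**Figure D1:**
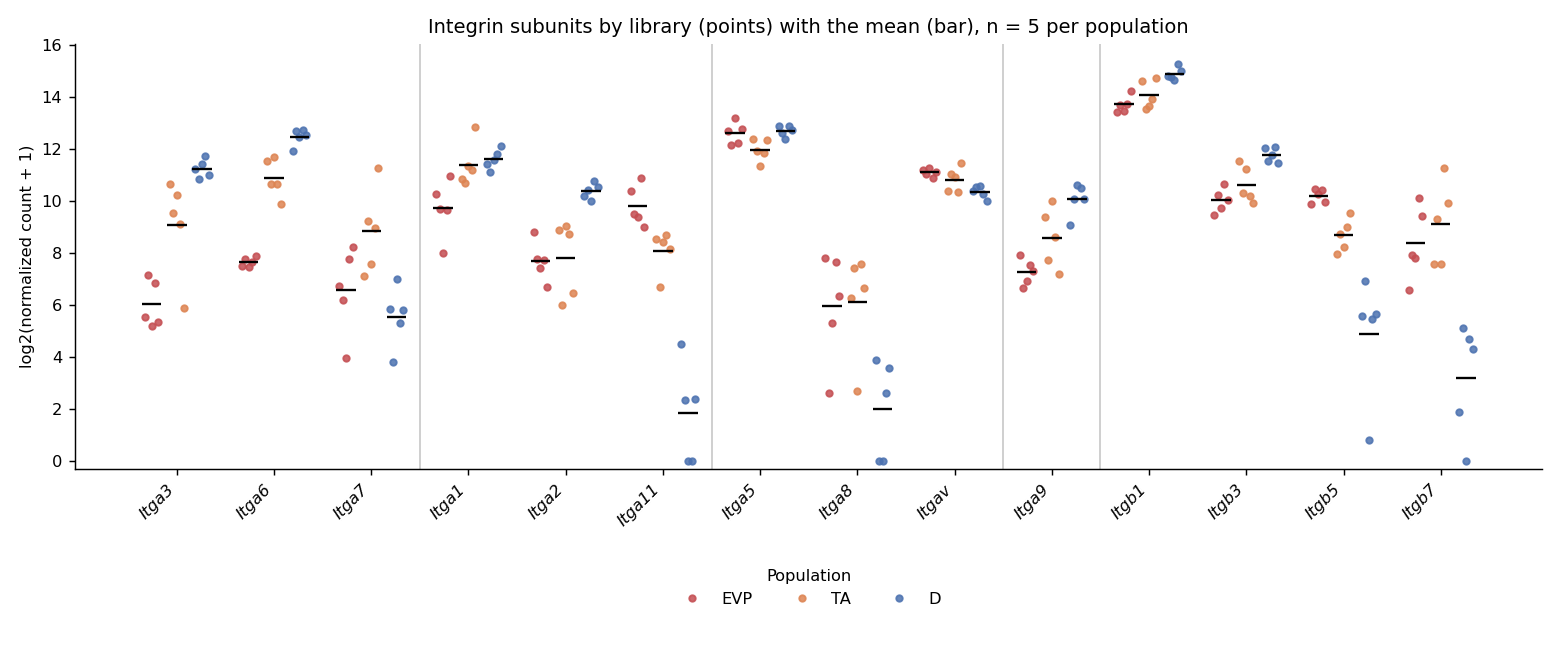
Log2(normalized count + 1) of 14 integrin subunits (x axis) in each library, with points for the 5 libraries of EVP, TA and D and a bar at the mean of each population. Vertical lines divide laminin receptor, collagen receptor and RGD receptor alpha subunits, Itga9 and beta subunits. Itga6 forms 3 separate clouds, and Itga11 and Itgb5 lie lowest in D.

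Of the receptors for the RGD motif of fibronectin, vitronectin and other ligands, Itga5, the fibronectin receptor subunit, was high everywhere. In normalized counts, Itga5 stood at 6534, 4511, 9199, 4723 and 6973 in EVP, 5293, 3829, 2580, 3631 and 5247 in TA and 7519, 6279, 5347, 7557 and 6835 in D. EVP and D overlapped and did not pass the test (EVP minus D -0.11 ± 0.22, adjusted p = 0.812), and TA lay below D without overlap (TA minus D -0.74 ± 0.22, adjusted p = 0.0315). This last call was lost in 13 of 29 alternatives, among them leaving out any of TA replicates 2, 3 and 4 or D replicates 1, 2, 4 and 5 (adjusted p up to 0.11). Itgav, whose product pairs with several beta subunits, was moderately higher in EVP. Measured levels were 2307, 2073, 2463, 1900 and 2209 in EVP, 1322, 2070, 1924, 1308 and 2798 in TA and 1343, 1475, 1537, 1237 and 1015 in D (normalized counts). All EVP libraries lay above all D libraries, and TA spanned both. The fold of EVP over D was 1.66 (EVP minus D 0.74 ± 0.20, adjusted p = 0.0136), a call that was lost when libraries were scaled to the same total (adjusted p = 0.054). Itga8, known from mesenchymal cells, had 5.226 to 224.7 normalized counts in EVP, 5.581 to 188.8 in TA and 0 to 13.73 in D, where 2 libraries were at 0. It was called between EVP and D (EVP minus D 3.94 ± 1.14, adjusted p = 0.0197) and between TA and D (TA minus D 4.10 ± 1.14, adjusted p = 0.0229) although the ranges overlapped, and the first call was lost without EVP replicate 1 or 4 or D replicate 2 or 3 (adjusted p up to 0.097 over 29 alternatives) and the other without TA replicate 2, 4 or 5 or D replicate 2 or 3 (up to 0.337 over 29 alternatives). Itga2b, the platelet subunit, ranged from 87.63 to 492.2 and was called in no comparison.

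Itga9, a subunit that binds tenascin and osteopontin and is known for the valves of lymphatic vessels, was higher in D. Itga9 was found at 242.3, 100.6, 121.9, 183.8 and 159.7 in EVP, 670.5, 211, 1020, 386.3 and 144.5 in TA and 539.5, 1074, 1546, 1445 and 1072 in D (normalized counts). EVP and D did not overlap, and TA reached into both. Its level in D was 7.02-fold that in EVP (EVP minus D -2.78 ± 0.46, adjusted p = 1.94e-04). It was also called between TA and D (TA minus D -1.48 ± 0.46, adjusted p = 0.0405), a call lost in 14 of 29 alternatives, among them leaving out EVP replicate 4 or 5, TA replicate 2, 4 or 5 or D replicate 2, 3, 4 or 5 (adjusted p up to 0.597). Itga4, the related subunit of leukocyte receptors, was called in no comparison, with 32.66 to 621.5 in EVP, 64.17 to 485 in TA and 21.23 to 130.4 in D.

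The beta subunits decide which pairs an alpha subunit can form, and Itgb1, partner of most matrix receptors, made up the largest share of their reads. The libraries held 10870, 13220, 11250, 13640 and 19200 in EVP, 24760, 11770, 12740, 15570 and 27040 in TA and 28410, 27420, 25550, 39270 and 32790 in D (normalized counts). The 5 D libraries lay above the EVP libraries, and TA replicate 5 reached into the D range. Itgb1 was 2.25-fold higher in D than in EVP (EVP minus D -1.18 ± 0.23, adjusted p = 8.19e-04), and higher in D than in TA (TA minus D -0.81 ± 0.23, adjusted p = 0.0242), a call lost without TA replicate 2, 3 or 4 or D replicate 4 or 5 (adjusted p up to 0.098 over 29 alternatives). Itgb3, which pairs with Itgav in endothelium, was also higher in D. Normalized counts of Itgb3 were 705.7, 1185, 845.9, 1623 and 1055 in EVP, 2939, 1275, 2376, 1171 and 958.4 in TA and 4200, 2979, 3496, 4350 and 2777 in D. EVP did not overlap with D, and TA replicate 1 reached the D range. The fold of D over EVP was 3.29 (EVP minus D -1.75 ± 0.29, adjusted p = 2.44e-04).

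Itgb5, the vitronectin receptor subunit that also pairs with Itgav, was higher in EVP. Itgb5 reached 933.9, 1421, 1238, 1363 and 996.4 in EVP, 251.6, 425.5, 301.3, 505.4 and 735.4 in TA and 46.68, 119.2, 0.7817, 43.57 and 49.56 in D (normalized counts). The populations followed the order EVP, TA, D without overlap. EVP held 22.9 times the mean of D (EVP minus D 5.31 ± 0.77, adjusted p = 5.59e-05) and TA 8.54 times (TA minus D 3.80 ± 0.77, adjusted p = 0.00282). From EVP to TA the difference did not pass (EVP minus TA 1.51 ± 0.77, adjusted p = 0.374). The exact two-sided permutation p of 0.00794 follows from the missing overlap, which 4.29% of all genes tested shared between EVP and TA. Itgb7, known as the lymphocyte partner of Itga4 and Itgae, was higher in EVP and TA than in D. Replicates 1 to 5 had 94.8, 244.3, 225, 1097 and 681.1 in EVP, 187.9, 634.7, 192, 2455 and 972.1 in TA and 2.746, 33.47, 0, 24.79 and 18.73 in D (normalized counts). No D library exceeded 33.47, and TA replicate 4 was the highest. Itgb7 was 29.4-fold higher in EVP (EVP minus D 5.17 ± 0.96, adjusted p = 6.51e-04) and 55.7-fold higher in TA (TA minus D 5.93 ± 0.96, adjusted p = 4.30e-04), or 19.5-fold without EVP replicate 4 and 31.1-fold without TA replicate 4. The sum of 12 leukocyte markers was 3249 to 16680 in EVP, 14550 to 68230 in TA and 9678 to 20280 in D, with the highest value in TA replicate 4, and of these markers 7 were called higher in TA than in D, 5 higher in TA than in EVP, and between EVP and D 1 in each direction.

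The other leukocyte integrins were called in no comparison, whether Itgb2, the common beta subunit, or Itgal, Itgam, Itgax, Itgad and Itgae, its partners and that of Itgb7. Itgb2 had 112.4 to 1013 normalized counts in EVP, 165.2 to 3824 in TA and 52.25 to 378.3 in D. Its highest library, like that of Itgal (608), Itgax (562.6), Itgae (1001), Itgam (106.6) and Itgad (53.28), was TA replicate 4, the library with the highest leukocyte sum. Itgam, Itgax and Itgad lie next to each other on chromosome 7, and a second row under the symbol Itgam, an overlapping transcript with at most 5.23 normalized counts, was set aside. Itgb4, the partner of Itga6 in the hemidesmosomes of epithelium, had 28.09 to 91.91 normalized counts in EVP, 90.89 to 837.8 in TA and 30.48 to 128.2 in D and was not called. Itgb6 and Itgb8, subunits that pair with Itgav and bind latent TGF-beta, were not called either, with 396.8 and 533.7 in EVP replicate 1 and at most 36.58 and 28.74 in another EVP library.

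**Figure D2:**
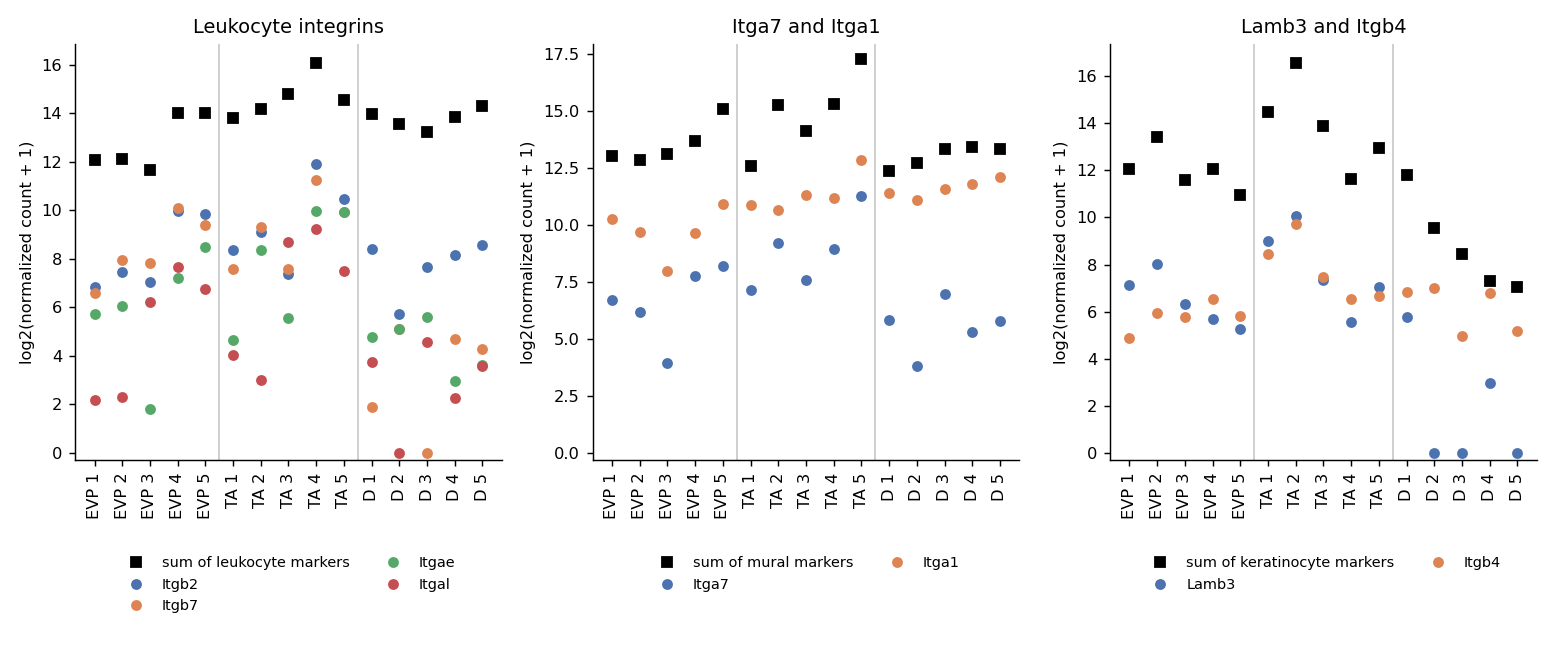
Log2(normalized count + 1) of integrins and laminins (circles) beside the summed level of a marker list (squares) in each of the 15 libraries, with gray lines between EVP, TA and D. TA replicate 4 has the highest Itgb2, Itgb7, Itgal and Itgae and the highest leukocyte sum (68230), TA replicate 5 the highest Itga7 and Itga1 and the highest mural sum (157200), and TA replicate 2 the highest Lamb3 and Itgb4 and the highest keratinocyte sum (94630).

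Among the laminins, the chains Lama4, Lamb1 and Lamc1, which assemble with each other into an endothelial laminin, were high in all populations and higher in D than in EVP and TA. In normalized counts, Lama4 stood at 5091, 7983, 5336, 6870 and 5101 in EVP, 9123, 5295, 4826, 4786 and 4680 in TA and 11730, 10890, 12750, 16280 and 15290 in D. D did not overlap with the others, while EVP overlapped with TA. The fold of D over EVP was 2.20 (EVP minus D -1.15 ± 0.19, adjusted p = 2.67e-04), and EVP and TA did not pass the test (EVP minus TA 0.11 ± 0.19, adjusted p = 0.929). Lamb1, at chr12:31265234-31329644 on the plus strand, encodes the usual beta chain. Measured levels were 4333, 8525, 6669, 8564 and 6220 in EVP, 11780, 4717, 6386, 6711 and 5766 in TA and 15740, 15780, 18070, 21030 and 21990 in D (normalized counts). D again lay above both gates, by 2.70-fold over EVP (EVP minus D -1.46 ± 0.23, adjusted p = 1.05e-04) and 2.62-fold over TA (TA minus D -1.45 ± 0.23, adjusted p = 2.98e-04). Lamc1 encodes the gamma chain of most laminins. Lamc1 was found at 2914, 5628, 5450, 5651 and 2304 in EVP, 5645, 2861, 5318, 5359 and 2386 in TA and 10190, 10400, 10540, 13920 and 12820 in D (normalized counts). EVP and TA spanned nearly the same range, and D lay 2.64-fold above EVP (EVP minus D -1.48 ± 0.28, adjusted p = 8.86e-04) and 2.68-fold above TA (TA minus D -1.5 ± 0.28, adjusted p = 0.00176).

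Lama5, at chr2:180176373-180225859 on the minus strand, encodes the chain of mature endothelial basement membrane. The libraries held 63.2, 40.5, 26.18, 160.6 and 47.02 in EVP, 448.1, 584.6, 342.6, 445.8 and 109.6 in TA and 994, 1643, 1427, 1911 and 1432 in D (normalized counts). D lay above all other libraries, and TA replicate 5 was within the EVP range. D held 22.0 times the mean of EVP (EVP minus D -4.69 ± 0.46, adjusted p = 8.01e-07) and 3.84 times that of TA (TA minus D -2.10 ± 0.46, adjusted p = 0.00495), and TA 5.72 times that of EVP (EVP minus TA -2.59 ± 0.46, adjusted p = 0.00537). Without EVP replicate 4, its highest EVP library, D held 33.5 times the mean of EVP and TA 8.73 times. Lama2, at chr10:26980036-27619758 on the minus strand, encodes the chain known from muscle and from mesenchymal cells, and it took the opposite course. Normalized counts of Lama2 were 2208, 1902, 1304, 2802 and 829.1 in EVP, 443, 1001, 424.1, 814.9 and 823.2 in TA and 149.6, 0, 3.127, 9.766 and 14.5 in D. The D libraries stayed at or under 149.6 and below all others, and EVP and TA overlapped. EVP was 51.1-fold above D (EVP minus D 7.37 ± 0.88, adjusted p = 7.28e-06) and TA 19.8-fold above D (TA minus D 6.04 ± 0.88, adjusted p = 1.70e-04). D replicate 1 held most of the D reads of this gene, and without it the folds were 264.2 and 102.4.

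Lamb2, the beta chain that replaces Lamb1 in synaptic, kidney and arterial laminins, was the only member called higher in EVP than in TA. Lamb2 reached 3072, 4024, 3588, 6061 and 3278 in EVP, 1506, 2222, 658.5, 1822 and 2368 in TA and 1308, 1812, 1542, 1804 and 1547 in D (normalized counts). EVP lay above both others without overlap, and the range of TA enclosed that of D. The fold was 2.498 over D (EVP minus D 1.29 ± 0.29, adjusted p = 0.00318) and 2.33 over TA (EVP minus TA 1.31 ± 0.29, adjusted p = 0.0168), and the last call was lost in edgeR, in a fit of both populations alone and without replicate 1 of every population (adjusted p up to 0.054). Lama3 and Lamb3 encode chains of the laminin that anchors epidermis. Lama3 had 11.06 to 168.5 normalized counts in EVP, 67.38 to 378 in TA and 291.1 to 466 in D, and was higher in D than in EVP (EVP minus D -2.50 ± 0.60, adjusted p = 0.00579). Lamb3 had 37.34 to 260 in EVP, 46.23 to 1061 in TA and 0 to 53.54 in D, where 3 libraries were at 0, and was called between EVP and D (EVP minus D 4.75 ± 1.07, adjusted p = 0.00361) with 1 D library, replicate 1, inside the EVP range, a fold of 9.42 with that library and of 67.2 without it. This call was lost in edgeR on whole reads (adjusted p = 0.103), while that between TA and D (TA minus D 6.05 ± 1.07, adjusted p = 9.81e-04) held in all 29 alternatives. Its highest library, TA replicate 2, had the highest sum of 9 keratinocyte markers (94630), against 3143 to 22460 in the other TA libraries, 1954 to 10860 in EVP and 131.1 to 3526 in D. Lamc3 ranged from 5.581 to 99.64 in TA and 0 to 30.21 in D, was called between them (TA minus D 3.35 ± 0.98, adjusted p = 0.0316) and lost that call in 13 of 29 alternatives, among them leaving out TA replicate 1, 2, 4 or 5 or D replicate 4 or 5 (adjusted p up to 0.298). Lama1, the chain of early embryonic laminin, did not pass 64.53 in any library and was called in no comparison.

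**Figure D3:**
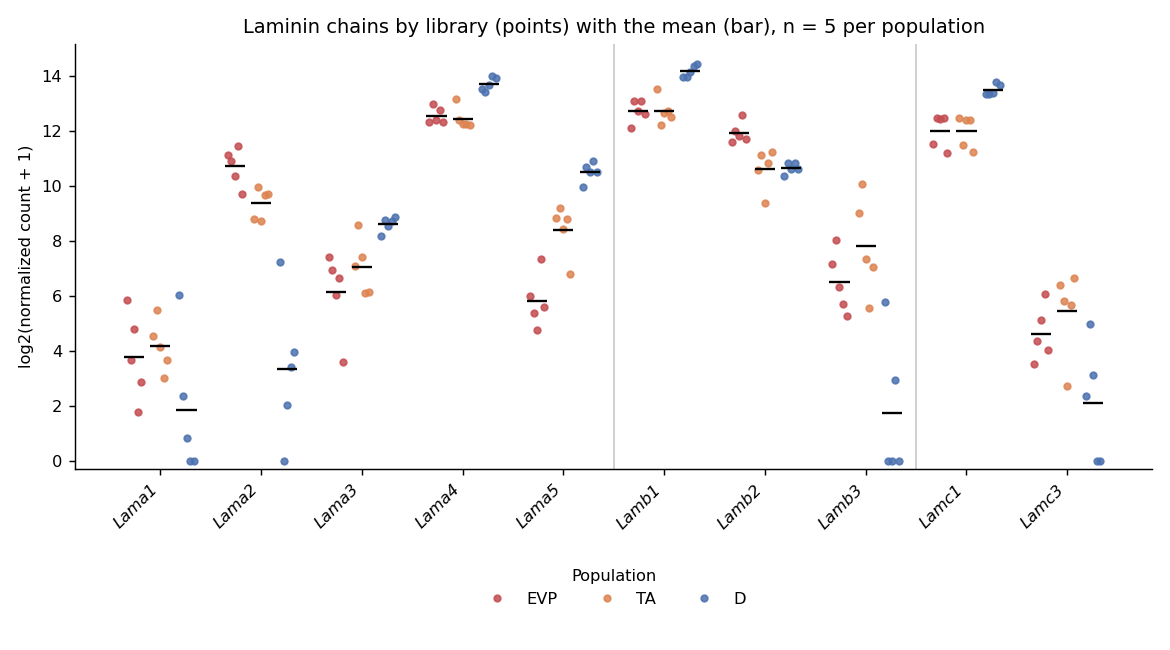
Log2(normalized count + 1) of the 10 laminin chains (x axis) in each library, with points for the 5 libraries of EVP, TA and D, a bar at each mean and vertical lines between alpha, beta and gamma chains. Lama4, Lamb1 and Lamc1 are high in all libraries, Lama5 is highest in D, and Lama2 is lowest in D.

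The promoters of 4 of these genes are shown because their transcripts differed in opposite directions between EVP and D, Lama5 and Lamb1 with more in D and Lama2 and Itga11 with more in EVP. The sequences are from RefSeq (GRCm38.p6), 250 bases before to 50 after the annotated start, read 5′ to 3′ on the strand of the gene, and 23 of the 36 members had an entry (26 promoters). Capitals mark the GC box (GGGCGG on either strand) and the ETS core (CGGAAG on either strand).
Lama5, chr2:180225810-180226109, minus strand: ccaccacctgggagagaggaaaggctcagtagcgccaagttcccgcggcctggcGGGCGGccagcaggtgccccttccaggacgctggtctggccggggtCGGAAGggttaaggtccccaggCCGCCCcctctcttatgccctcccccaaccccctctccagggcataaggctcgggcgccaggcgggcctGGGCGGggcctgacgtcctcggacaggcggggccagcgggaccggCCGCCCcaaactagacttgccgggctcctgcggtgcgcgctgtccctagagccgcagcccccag
Lamb1, chr12:31265043-31265342, plus strand: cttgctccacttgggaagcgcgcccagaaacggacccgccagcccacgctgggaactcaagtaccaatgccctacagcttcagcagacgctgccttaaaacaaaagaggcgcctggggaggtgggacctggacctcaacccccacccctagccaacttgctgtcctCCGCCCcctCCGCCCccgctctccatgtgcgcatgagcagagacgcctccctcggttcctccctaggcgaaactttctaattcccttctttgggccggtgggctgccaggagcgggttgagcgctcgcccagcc
Lama2, chr10:27616893-27617192, minus strand: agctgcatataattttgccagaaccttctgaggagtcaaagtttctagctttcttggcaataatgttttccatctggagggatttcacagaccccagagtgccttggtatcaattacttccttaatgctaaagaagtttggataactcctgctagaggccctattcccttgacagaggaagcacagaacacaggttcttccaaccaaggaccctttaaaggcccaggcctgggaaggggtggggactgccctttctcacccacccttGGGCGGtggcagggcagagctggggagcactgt
Itga11, chr9:62677605-62677904, plus strand: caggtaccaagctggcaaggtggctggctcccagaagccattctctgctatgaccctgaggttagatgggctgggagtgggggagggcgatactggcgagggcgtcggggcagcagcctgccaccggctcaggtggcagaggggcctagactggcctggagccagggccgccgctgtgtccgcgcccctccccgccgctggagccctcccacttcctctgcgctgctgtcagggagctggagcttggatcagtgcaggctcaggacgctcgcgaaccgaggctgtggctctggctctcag
The Lama5 window held 4 GC boxes and 1 ETS core, that of Lamb1 2 GC boxes, that of Lama2 1 GC box and that of Itga11 neither. A GC box was in 35.7% of all 32851 promoters of this length and in 12 of the 26 of members, and an ETS core in 16.9% of all and in 3 of the 26. The Lama5 window held 24 CpG and the Lama2 window 1, with a median of 7 over all promoters, and the Lama2 start of RefSeq lies inside the gene as the expression table places it. The SOX motif AACAAT, the AP-1 motif TGANTCA and the TATA box TATAAA were also searched on both strands, and none of these was in the 4 windows shown. These letters are a description of the windows and no evidence of binding.

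Levels were set side by side between genes per kb of exon. Lama4 held 80.2 ± 6.7% (SD, n = 5) of the laminin alpha chains in EVP, 82.9 ± 6.0% in TA and 86.6 ± 2.1% in D. The remainder was mostly Lama2 in EVP (17.2 ± 5.4%) and Lama5 in D (10.2 ± 2.1%), and TA held 8.06 ± 3.5% and 5.96 ± 2.6% of these. Every EVP library had more Lama2 than Lama5, and every D library more Lama5 than Lama2. Of the beta chains, Lamb1 and Lamb2 were about equal in EVP (50.6 ± 4.5 and 48.1 ± 4.7%), whereas Lamb1 took 87.4 ± 2.0% in D. Near equality in EVP depended on the length correction, without which Lamb1 held 62.4% and Lamb2 36.5%. Lamc1 held 97.8% or more of both gamma chains on average in each population. Of the alpha integrins, Itga5 led in all populations, with 64.0 ± 9.9% in EVP, 39.6 ± 8.5% in TA and 43.6 ± 5.2% in D. Behind it came Itgav (10.4 ± 1.5%) and Itga11 (10.2 ± 5.9%) in EVP, and Itga6 (20.4 ± 3.6%) and Itga3 (13.9 ± 2.6%) in D. Without length correction Itga5 still led on average (51.3% in EVP, 26.7% in TA and 30.2% in D), Itgav rose to 18.0% in EVP, and Itga1 (14.2%) came before Itga3 (11.1%) in D. Itgb1 held 79.5 ± 5.1% of the beta integrins in EVP, 78.4 ± 11% in TA and 91.2 ± 1.5% in D, followed by Itgb5 in EVP (8.29 ± 2.1%) and Itgb3 in D (7.40 ± 1.5%). These shares are a description with no test.

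**Figure D4:**
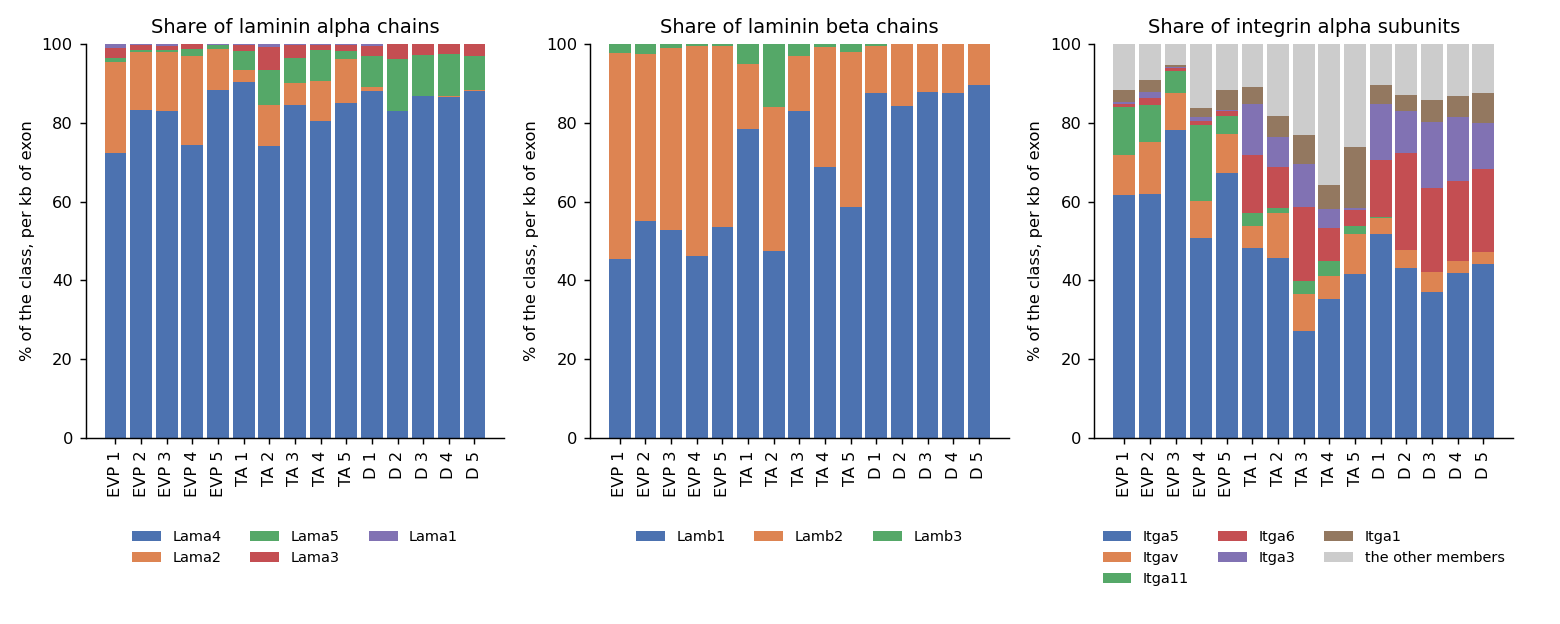
Share of each gene (%, y axis) among the laminin alpha chains, laminin beta chains and integrin alpha subunits, per kb of exon, as stacked bars for each of the 15 libraries. Lama2 gives way to Lama5 from EVP to D, Lamb2 from 48.1% to 12.5% on average, and Itga11 and Itgav to Itga6 and Itga3.

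Between EVP and TA, 4 of the 36 genes were called, against 3.50% of all genes tested. Itga3, Itga6 and Lama5 were higher in TA (1.94% of all genes) and Lamb2 was higher in EVP (1.56%). The libraries did not overlap for 4 members, against 4.29% of all genes. An unadjusted limma p under 0.05 was found for 10 of the 36 members and for 3962 of the 25549 genes tested. The median log2 difference, EVP minus TA, was -0.38 over the members and 0.085 over all genes. Between TA and D, 19 members were called against 12.5% of all genes, with 11 higher in D (4.31%) and 8 higher in TA (8.21%), and 13 did not overlap, against 9.25% of all genes. Here the median, TA minus D, was 0.90 over the members and 0.24 over all genes. TA replicates 2, 4 and 5 were also left out together. This alternative was chosen after seeing the data because these libraries had high keratinocyte, leukocyte or mural sums. It called 1703 of 26495 genes tested between TA and D, against 3199 of 25549 with all libraries. Of the members, 9 were called. These were Itga6, Itga11, Itgb7, Lama2, Lama4, Lama5, Lamb1 and Lamb3, the ninth being Itgb8, which was not called with all libraries. The TA replicates kept, 1 and 3, had the highest endothelial sums of TA (95750 and 51250). Replicate 3 also had a higher leukocyte sum (28520) than replicates 2 and 5 (18380 and 24200). Of 7 melanocyte and melanoma markers, all were called higher in TA than in D, 3 higher in TA than in EVP and 1 higher in EVP than in D. Their sum was 29780 to 67410 in EVP, 69330 to 176200 in TA, highest in replicate 3, and 18210 to 47920 in D, and its part in the differences of TA was not tested. The 3 comparisons share libraries and are not independent. Of the 20 genes called between EVP and D, TA had a mean log2 level between both for 14, and it was nearer to EVP for 15. For Itga8, Itgb7, Lama4, Lamb3 and Lamc1 TA lay outside on the side of EVP, and these genes are among the 15. For Lamb2 TA lay outside on the side of D. The 13 members called in no comparison were Itga2b, Itga4, Itga10, Itgad, Itgae, Itgal, Itgam, Itgax, Itgb2, Itgb4, Itgb6, Itgb8 and Lama1.

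**Figure D5:**
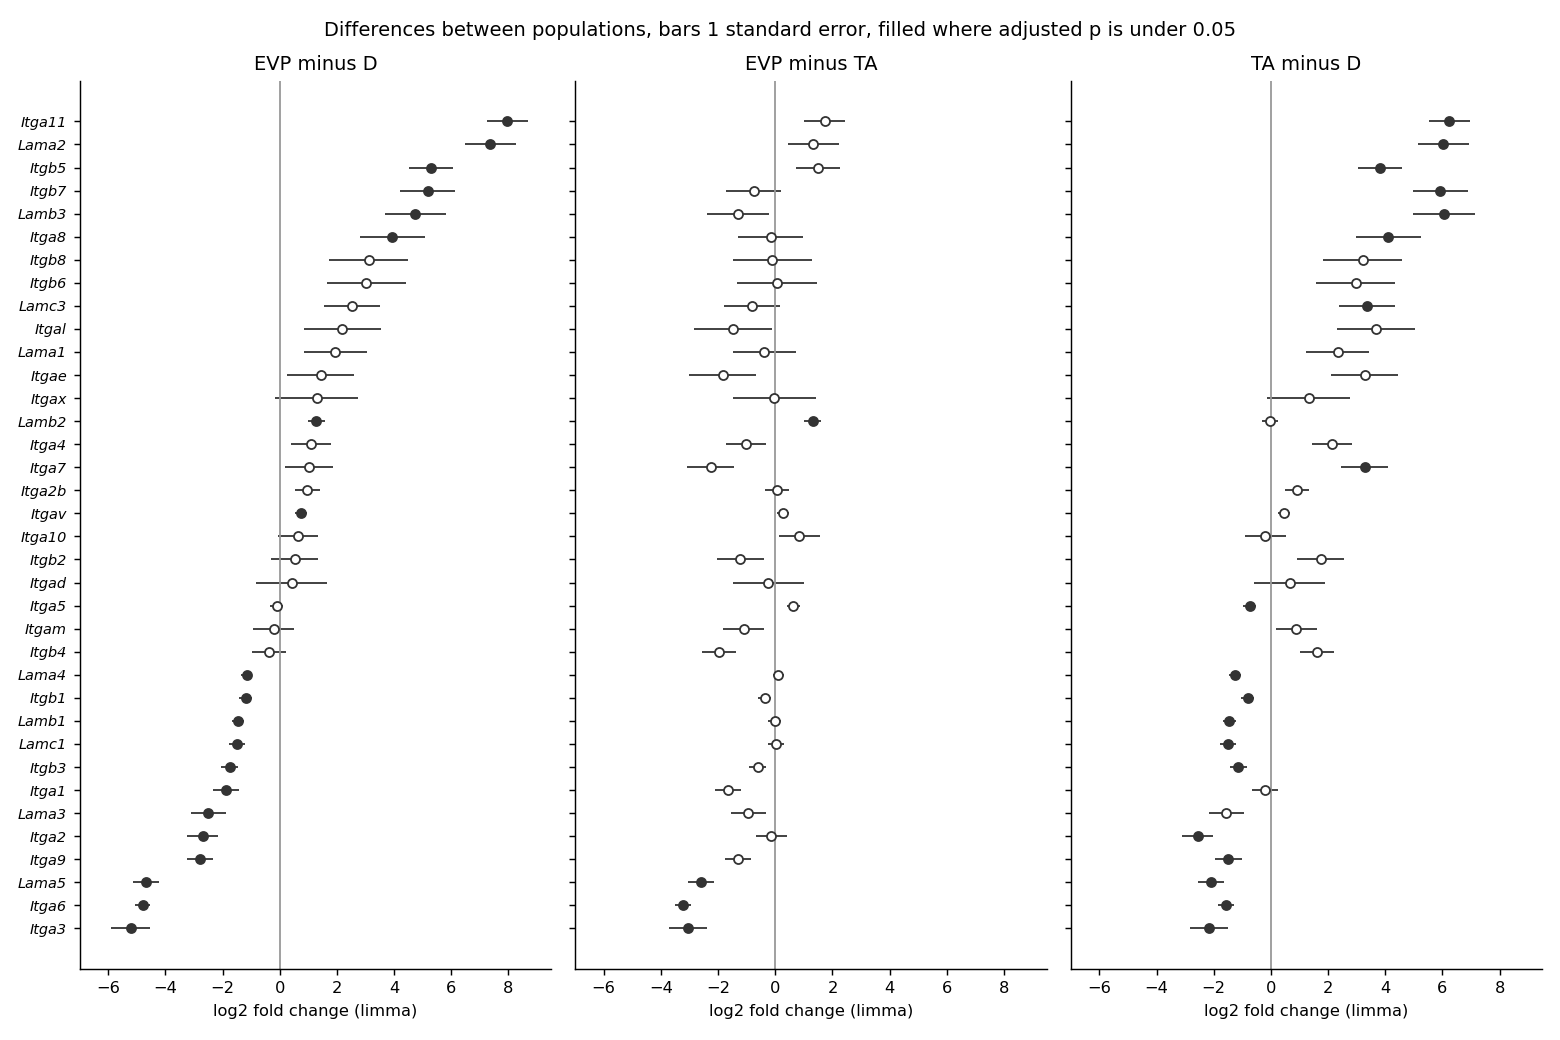
Log2 difference between populations (x axis, limma on log2(normalized count + 1)) with bars of 1 standard error for the 36 genes (y axis, ordered by EVP minus D), in 3 panels for EVP minus D, EVP minus TA and TA minus D. Filled points had an adjusted p under 0.05, which was the case for 20, 4 and 19 genes.

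Other matrix proteins of basement membranes, ligands and adaptors were counted in lists that were chosen by function. Of 17 basement membrane partners, 11 were called between EVP and D, 8 higher in EVP and 3 higher in D, with a median log2 difference, EVP minus D, of 1.48. Over all genes, 19.0% were called, 11.6% higher in EVP and 7.46% higher in D, with a median of 0.46. Higher in D were the laminin crosslinker Nid2 (EVP minus D -3.66 ± 0.37, adjusted p = 9.97e-07), the alpha5 laminin receptor Bcam (EVP minus D -2.31 ± 0.36, adjusted p = 1.14e-04) and perlecan, Hspg2 (EVP minus D -1.32 ± 0.30, adjusted p = 0.00370). Nid2 (EVP minus TA -1.78 ± 0.37, adjusted p = 0.0121) and Bcam (EVP minus TA -2.32 ± 0.36, adjusted p = 0.00260) were also the 2 called between EVP and TA, both higher in TA, against 3.50% of all genes. The largest differences toward EVP were in Smoc2, a calcium-binding matrix protein (EVP minus D 8.45 ± 0.60, adjusted p = 1.91e-08), and the syndecan proteoglycan Sdc2 (EVP minus D 6.11 ± 0.37, adjusted p = 2.62e-09).

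Of 24 integrin ligands other than laminins, 15 were called between EVP and D, 11 higher in EVP and 4 higher in D, against 19.0% of all genes (11.6% and 7.46%), with a median of 1.28 against 0.46. The differences toward EVP were largest for tenascin X, Tnxb (EVP minus D 9.07 ± 0.89, adjusted p = 8.04e-07), thrombospondin 2, Thbs2 (EVP minus D 8.09 ± 0.48, adjusted p = 2.20e-09), and fibrillin 1, Fbn1 (EVP minus D 7.76 ± 0.45, adjusted p = 2.07e-09). Toward D they were largest for Icam2, an endothelial ligand of leukocyte integrins (EVP minus D -6.76 ± 0.66, adjusted p = 8.01e-07), and von Willebrand factor, Vwf (EVP minus D -4.14 ± 0.61, adjusted p = 7.01e-05). Between EVP and TA, 6 ligands were called against 3.50% of all genes, 5 higher in EVP including fibronectin, Fn1 (EVP minus TA 1.43 ± 0.30, adjusted p = 0.0132), and 1, Icam2, higher in TA (EVP minus TA -4.35 ± 0.66, adjusted p = 0.00243).

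Of 33 adaptors and signaling proteins of integrins, 19 were called between EVP and D, 7 higher in EVP and 12 higher in D, against 19.0% of all genes (11.6% and 7.46%), with a median of -0.40 against 0.46. Higher in D were Kank3, of a family that links talin to the cell cortex (EVP minus D -5.03 ± 0.57, adjusted p = 3.99e-06), the parvin Parvb (EVP minus D -2.98 ± 0.40, adjusted p = 2.19e-05), the actin crosslinker Actn4 (EVP minus D -2.20 ± 0.22, adjusted p = 1.17e-06) and the scaffold Bcar1 (EVP minus D -1.87 ± 0.22, adjusted p = 5.04e-06). Higher in EVP were Apbb1ip, which recruits talin to Rap1 (EVP minus D 4.60 ± 0.39, adjusted p = 1.63e-07), Fermt1, the kindlin of epithelium (EVP minus D 4.54 ± 0.95, adjusted p = 0.00199), and the talin isoform Tln2 (EVP minus D 4.37 ± 0.43, adjusted p = 7.36e-07). Fermt1 had 3 D libraries at 0 and its highest value, 206.6 normalized counts, in TA replicate 2, the library with the highest keratinocyte sum. Kank3, Parvb, Actn4 and Bcar1 were also called between EVP and TA, all higher in TA, as were Apbb1ip and Kank2, both higher in EVP.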

How the data were processed

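RNA of 15 sorted samples (5 EVP, 5 TA and 5 D) was sequenced from modified Smart-Seq2 libraries. The authors used STAR 2.5.3a for alignment to GRCm38, quantified them per gene with HTSeq-count and divided the counts by DESeq2 1.10.1 size factors, per the labels and the study's methods. The deposited table is thus a signal value per gene and library, and 100% of its values were whole multiples of the smallest value above 0, within 0.001 of a whole number, so that whole reads were recovered. The authors' own comparison tables hold a mean, a log2 fold change and its error, a test score and p-values, and none of these deposited values was used. The library protocol keeps no strand, so that reads of overlapping genes on opposite strands cannot be told apart.

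Differences between populations were tested in R 4.3.3 with limma 3.58.1 (trend, two-sided, no replicate block, all libraries in the fit) on log2(normalized count + 1) for genes with a mean of at least 5. The alternatives were pseudocounts of 0.5 and 8, no minimum or a minimum mean of 20, the same total per library, quantile normalization, array weights, fits of 2 populations, the replicate block, edgeR 4.0.16, DESeq2 1.42.0, a minimum log2 fold change of 1 and leaving out libraries. Exon lengths came from GENCODE annotation of GRCm38. The test was tried on simulated data first. The members and the gene lists were chosen with earlier results of these data known. All members are accounted for, with every library's value where a gene was called and reached a population mean of 500, and genes of other lists are named only if among the 5 largest called rises or the 5 largest called falls of their list between EVP and D or EVP and TA. Limits of detection cover counting error only, since reads carry no molecular identifiers. The standard errors of log2 differences and the SDs of shares measure the spread between libraries.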

Additional observations from a re-analysis of the deposited data

Results flagged for a closer look

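A library was set apart from the 4 others of its population by its gap to the nearest of them, divided by the range of the population. Gap and range were taken on log2(normalized count + 1), while the values printed below are normalized counts. The limit was 0.71, the 95% critical value of Dixon's test for 5 samples. Of 108 groups (36 genes in 3 populations), 10 did so, and chance flags about 1 in 20 groups, which is 5.4 here. In TA, replicate 1 was highest for Lama4 (9123 normalized counts, next 5295), replicate 2 was lowest for Itga11 (103.7, next 281.5), replicate 3 was lowest for Itga8 (5.581, next 75.84) and for Lamc3 (5.581, next 49.36), and replicate 4 was highest for Itgad (53.28, next 1.116). In D, replicate 3 was lowest for Itgb5 (0.7817, next 43.57) and for Itgax (0, next 20.55), and replicate 1 was highest for Itgad (20.59, next 0) and for Itgb8 (86.49, next 2.345). In EVP, replicate 1 was highest for Itgb8 (533.7, next 28.74). A value of 5.581 in TA replicate 3 stands for 5 reads, and D replicate 3 had 1 read of Itgb5.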

How the results depend on the processing

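No gene called here changed direction under any of 29 alternatives, and the call held in all of them for 17 of the 20 genes between EVP and D, 2 of the 4 between EVP and TA (Itga6 and Lama5) and 8 of the 19 between TA and D. Between EVP and TA, 4 genes were called, against 9 with DESeq2 on whole reads and 2 without replicate 1 of every population, and between TA and D 19, against 9 without TA replicates 2, 4 and 5, which leaves 2 TA libraries. Leaving out each library in turn gave 19 to 23 calls between EVP and D, 3 to 6 between EVP and TA and 13 to 20 between TA and D. Over all genes the calls were then 4106 to 5150, 428 to 1209 and 2403 to 3581. With the replicate number as a block the calls among the members were 23, 5 and 25. Calls over all genes also rose with the block, to 5710, 1262 and 4047 from 4859, 893 and 3199. The main fit had no block because the study's methods name none. Deviations from the population means correlated between libraries of the same number at -0.136 to 0.689, above 0.1 in 11 of 15 pairs. Of the 15 libraries, 12 correlated best with a library of their own number. A pairing of the samples by number was therefore neither assumed nor excluded. Of 65 differences that were not called, 25 changed sign and 25 passed the threshold in some alternative. Quantile normalization moved the median log2 difference of all genes, EVP minus D, from 0.46 to -0.05 and the same total per library moved it to 0.36. Over all genes, 893 were called between EVP and TA (398 higher and 495 lower in EVP), against 1919 with DESeq2, 663 with edgeR (214 higher), 956 with the same total per library (240 higher), 659 with only these populations in the fit (387 higher), 522 without replicate 1 of every population, 1601 without TA replicates 2, 4 and 5 and 428, 471 and 568 without EVP replicate 2, EVP replicate 3 or TA replicate 3. Between TA and D, 3199 genes were called, against 2117 with quantile normalization, 5054 with array weights and 1703 without TA replicates 2, 4 and 5. Between EVP and D, 4859 were called (2952 higher in EVP), against 3903 with quantile normalization (1920 higher) and 7609 with array weights. The causes were not tested. Shares were computed per kb of exon, and without length correction 16 of 42 shares (14 genes in 3 populations) moved by more than 1 SD, among them those of Lamb1 and Lamb2 in EVP and D, Itga5 in all populations and Itgav in EVP. Depth limits genes such as Itgad, Itga10 and Lama1, which had 3 reads or fewer in several libraries.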

Other observations

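Itgb6, Itgb8 and Lama1 had their highest value within EVP and within D in replicate 1, the libraries with a high share of Gm10800. Itgb6 had 396.8 normalized counts in EVP replicate 1 and 4.149 to 36.58 in the other EVP libraries, and 53.54 in D replicate 1 against 0 to 6.531. Lama1 had 64.53 in D replicate 1 and 0 to 4.082 in the other D libraries. In TA, Itgb6 and Itgb8 were highest in replicate 3 (148.4 and 256.7) and next in replicate 1 (105.1 and 225.8), the TA libraries with the highest shares of Gm10800 reads (0.701 and 8.69%). Lama1 differed in TA, where it was highest in replicate 2 (43.95), with 22.41 in replicate 1 and 16.74 in replicate 3. Without D replicate 1, all 3 genes passed the threshold between EVP and D. The part of these libraries in the levels was not tested.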
